A study of Mus musculus with 6 samples.

Results

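The main immature astrocytes of the early postnatal mouse striatum are described here, the cells that the authors numbered astroglial sub-clusters 0 and 1 and placed in the telencephalon. The members were chosen by that number alone in the deposited table of annotated cells, and their counts were taken from the deposited count table by cell identifier. They were 3041 cells, 1830 of sub-cluster 0 and 1211 of sub-cluster 1, among 8874 astroglial cells at postnatal day 3 (P3), 9992 astroglial cells of both ages and 14373 cells that passed the authors' filter. The sub-clusters were drawn by the authors from these same counts, so each gene had a part in choosing the cells. Every difference between sub-clusters below is therefore a description with its spread over libraries, and no p-value is given.

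Astrocytes arise from radial glia and their progenitors in the embryonic and early postnatal brain, divide locally for a short time after birth and then mature over several weeks. During maturation they take on the clearance of glutamate and GABA from synapses, the buffering of potassium and water at end-feet on blood vessels, and the supply of lipids and matrix proteins that neurons need to form synapses. Astrocytes of the forebrain also keep traces of the patterning genes of the region they came from, and in the striatum they become part of circuits built by telencephalic neurons.

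The study sequenced striatal cells of wild-type male C57BL/6 mice at P3 and at 3 months (3m), 3 libraries at each age from separate preparations, and no group carried a transgene or a treatment. Cells were enriched with magnetic beads against ACSA2, an astrocyte surface antigen encoded by *Atp1b2*, and run on a droplet platform that counts the 3′ ends of transcripts. The sort sets which cells could be counted, so a share of cells below is a share of the sorted suspension and not of the tissue. Levels are given in CPM, the UMIs (unique molecular identifiers, one per captured transcript) of a gene per 1000000 UMIs summed over the cells named, per library.

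One library stood apart. Of the 1211 cells of sub-cluster 1, 1156 (95.5%) came from P3 replicate 1, which in turn gave 115 of the 1830 cells of sub-cluster 0 and 9 of the 420 cells of sub-cluster 9. P3 replicate 1 also differed in cells that are not astrocytes. *Gapdh*, a glycolytic enzyme, stood at 1289, 2292 and 2239 CPM in the pericyte cluster of replicates 1, 2 and 3 and at 1611, 2759.7 and 2750.2 CPM in the members. Sub-clusters 0 and 1 are kept together for this reason, each count below is given also for sub-cluster 0 alone or without P3 replicate 1 where it moves by over 1.5 times, and library and sub-cluster cannot be told apart within sub-cluster 1. Of all barcode sequences among the kept cells, 28 of 14345 occurred in more than one library, and 1 did so among the members.

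The share of members differed widely between the P3 libraries. Sub-clusters 0 and 1 held 1271 of 1985 astroglial cells in P3 replicate 1 (64.0%, 95% Wilson interval 61.9 to 66.1), 1005 of 3103 in replicate 2 (32.4%, 30.8 to 34.1) and 765 of 3786 in replicate 3 (20.2%, 18.96 to 21.5), a mean of 38.9% ± 22.6 (SD, n = 3). The intervals cover counting error only and do not overlap. Most of the gap lay in sub-cluster 1, which was 58.2% of the astroglial cells in replicate 1 and under 1% in the others, whereas sub-cluster 0 was 5.79, 31.5 and 19.5% (replicates 1, 2 and 3). No cell of 1118 astroglial cells at 3m was in either sub-cluster. By counting error this allows a share of up to 1.41, 0.549 and 0.836% in 3m replicates 1, 2 and 3. In the authors' clustering of all cells, 2722 of the members (89.5%) were in a single cluster of P3 astrocytes.

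**Figure D1:**
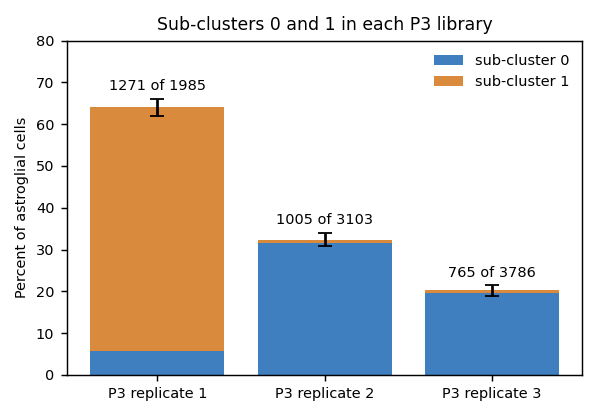
Cells of sub-clusters 0 and 1 as a percent of the astroglial cells of each P3 library (vertical axis, from 0), with sub-cluster 0 below and sub-cluster 1 above in each bar. The bars reach 64.0, 32.4 and 20.2%, the error bars are 95% Wilson intervals of the whole bar, and sub-cluster 1 is wide in replicate 1 only.

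The members were of medium depth and lay late on the authors' pseudotime of the P3 cells. Their median cell held 8923, 7642 and 6665 UMIs in P3 replicates 1, 2 and 3, against 14052, 11932 and 9755 in sub-cluster 2. The median share of mitochondrial UMIs was 2.74, 2.32 and 1.84% in the members and 1.93, 1.55 and 1.14% in sub-cluster 2. The pseudotime score, which has no unit and starts in cycling progenitors, had a median of 160.3, 159 and 163 over the members with a score, above sub-cluster 2 (137, 139.8 and 142) and below the main adult sub-clusters 7 and 14 (215, 203 and 205, 3m replicates 1, 2 and 3). All cells of sub-cluster 0 had a score, but only 39.4, 24.1 and 11.5% of those of sub-cluster 1 did, so the values of P3 replicate 1 rest on 571 of its 1271 members. Few members were dividing. Cells with a UMI in at least 2 of *Mki67*, *Top2a* and *Cdk1* were 1.34, 0.896 and 0.261% of the members (17, 9 and 2 cells), against 13.6, 10.7 and 9.97% in sub-cluster 2. With each cell thinned to 2000 UMIs these were 0.161, 0.216 and 0% and 1.29, 0.8696 and 0.347%, near the level of single UMIs, and no order is read from them.

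The members carried markers of astroglia, of which *Fabp7* marks immature cells, while *Sox9* and *Slc1a3* were close at both ages. The authors re-clustered only clusters with *Sox9*, so its presence here was set by that choice. *Sox9*, a transcription factor of astroglia, stood at 635, 537 and 825 CPM in the members of P3 replicates 1, 2 and 3. *Fabp7*, a fatty acid binding protein of radial glia and young astrocytes (chr10:57784881-57788450, plus strand, mm10), stood at 24846, 31090.4 and 25424 CPM, and *Slc1a3*, the glutamate transporter GLAST, at 2676, 2708 and 3143 CPM. All 3 markers were therefore present in every library, with *Sox9* highest in replicate 3. In that library *Sox9* was above the members in sub-clusters 3 and 5 (1311 and 1278 CPM), among others. It was below them in the non-cycling sub-clusters 2 and 11 (693 and 676 CPM). After thinning every cell to 2000 UMIs, *Fabp7* was detected in 100, 100 and 100% of the members and *Slc1a3* in 98.5, 98.4 and 99.2%. *Sox9* was detected in 63.7, 62.6 and 74.9%. The neonatal endothelial cluster, which should lack them and had median depths of 32603, 22396 and 26229 UMIs per cell, gave 12.1, 18.7 and 16.9% for *Fabp7*, 2.89, 3.51 and 5% for *Slc1a3* and 9.25, 8.19 and 7.69% for *Sox9*. Later astrocyte genes were present too: *Slc1a2*, the transporter GLT-1 that takes up most synaptic glutamate, in 91.9, 88.5 and 94.9% of thinned members and *Aqp4*, the end-foot water channel, in 60.96, 56.6 and 62.7%.

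Genes of telencephalic patterning were present in the members, but they did not set the members apart. Of 24 telencephalic patterning genes, 14 had a mean of 10 CPM or more in the members, among them the homeobox factors *Lhx2* at 106, 111 and 133 CPM and *Emx2* at 64.2, 65.02 and 76.5 CPM. Of 34 patterning genes of the diencephalon, midbrain and hindbrain, 2 did (*Nkx2-2* and *Tcf7l2*), 29 had a mean under 1 CPM and 17 had no UMI in any P3 library of the members, *Pax3*, *Pax7* and *En2* among them. The sub-clusters that the study tentatively assigned to regions outside the telencephalon carried *Lhx2* as well, at 251 ± 22.7 CPM (mean ± SD over libraries, n = 3) in sub-cluster 3, 226 ± 15.5 in sub-cluster 5 and 273 ± 84.05 in sub-cluster 10, against 122 ± 11.3 in sub-cluster 0 and 98.4 ± 11.7 in sub-cluster 1. *Lhx2* was thus lower in the members than in those sub-clusters, and did not mark the members out.

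Genes of other cell types were low in the members. Summed over each marker list, the range over the P3 libraries was 5.25 to 7.63 CPM for oligodendrocytes, 5.96 to 9.05 for their precursors, 0.177 to 0.819 for microglia and 1.86 to 3.02 for endothelium. Neuronal markers summed to 11.5 to 12.7 CPM, multiciliated cell markers to 12.9 to 18.5, haemoglobin genes to 1.86 to 11.9 and choroid plexus markers to 0 to 0.351. Pericyte markers summed to 37.9 to 54.1 CPM, nearly all of it *Pdgfrb*, a growth factor receptor.

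Among themselves the members of the 3 libraries were alike for most genes. Over 8097 genes with a mean of at least 10 CPM, Pearson's r of log2 levels, across genes that are not independent, was 0.978 between replicates 1 and 2, 0.975 between 1 and 3 and 0.987 between 2 and 3. P3 replicate 1 differed from replicate 2 by over 2-fold in 55 genes and from replicate 3 in 83, while replicates 2 and 3 differed in 9. The levels of 12 genes across all P3 sub-clusters show which of them set the members apart from which neighbour.

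**Figure D2:**
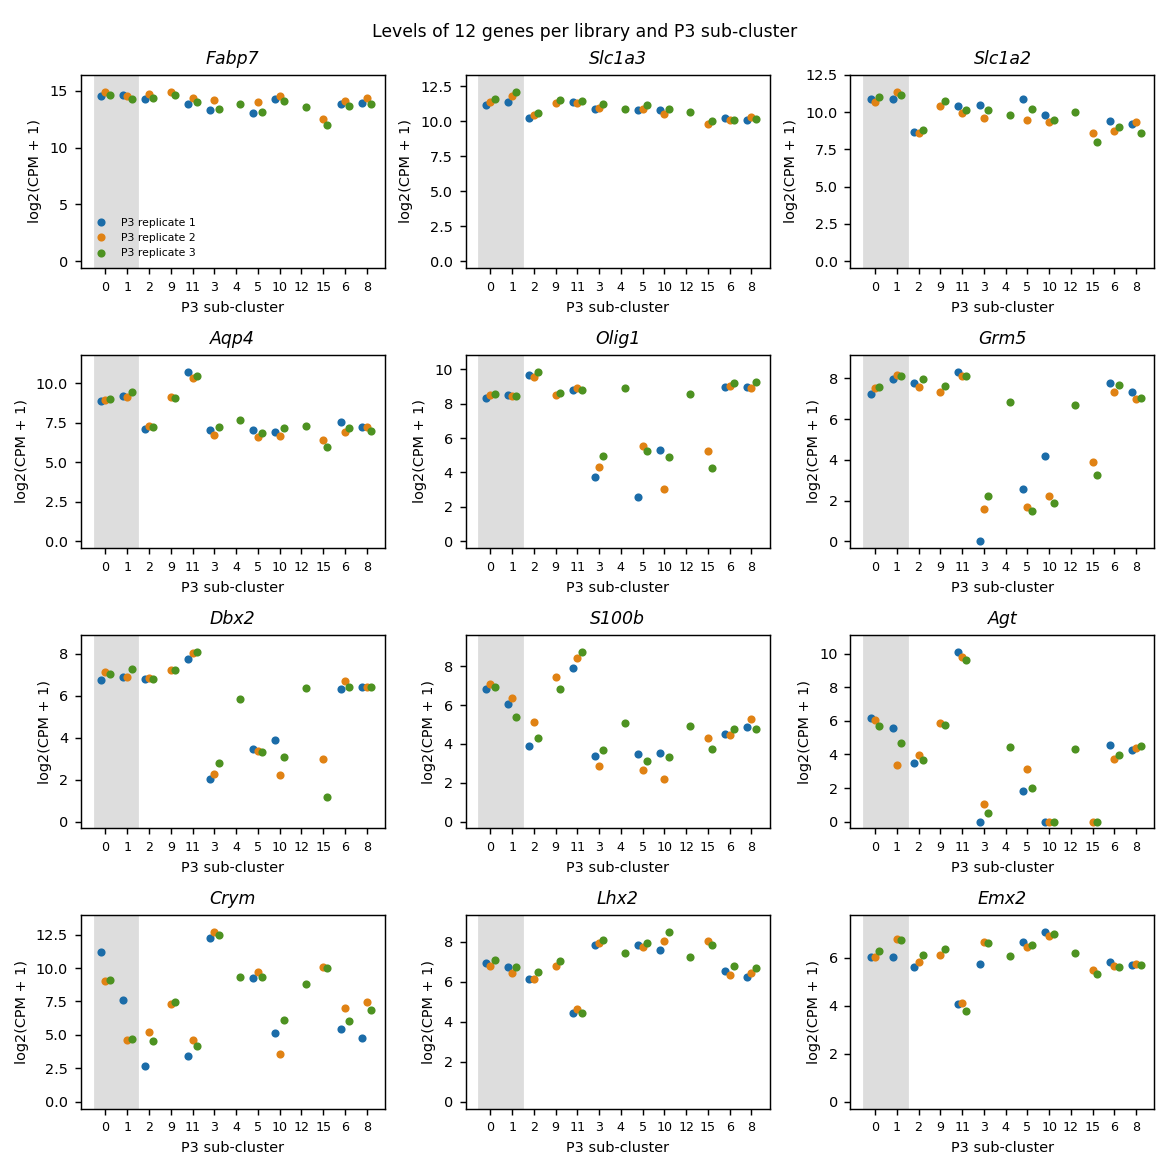
log2(CPM + 1) of 12 genes (vertical axes) in each P3 sub-cluster (horizontal axes), one point per library with at least 20 cells of that sub-cluster, coloured by replicate, with sub-clusters 0 and 1 on grey. *Slc1a2* and *Aqp4* are lower in sub-cluster 2 than in the members, *Grm5*, *Dbx2* and *Olig1* are low in sub-clusters 3, 5, 10 and 15, *Agt* is high in sub-cluster 11, and *Crym* differs between sub-clusters 0 and 1.

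Against all other non-cycling P3 astroglial cells of their own library (4655 cells of sub-clusters 2, 3, 4, 5, 9, 10, 11, 12 and 15), the members differed in few genes. A gene is counted as higher or lower where its mean log2 ratio over the libraries reached 1 or -1, a 2-fold difference, with that sign in each library. Of 8643 genes with a mean of at least 10 CPM, 73 were higher (0.845%) and 354 lower (4.10%) in the members, and the median of all genes was -0.04. With sub-cluster 0 alone the counts were 69 and 385, and without P3 replicate 1 they were 84 and 402. The makeup of the comparator differed between libraries, since cells of the side branches made up 151 of its 388 cells in replicate 1, 906 of 1636 in replicate 2 and 1949 of 2631 in replicate 3.

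The 10 genes furthest above the other cells were ranked by the library with the smallest ratio. *Hapln1*, a link protein of the hyaluronan matrix (chr13:89539796-89611652, plus strand), stood at 111, 139 and 164 CPM in the members of P3 replicates 1, 2 and 3 and at 40.6, 48.5 and 55.99 CPM in the other cells. The members were above the other cells in each library, by a log2 ratio of 1.49 ± 0.05 (mean ± SD, n = 3). *Htra1*, a secreted serine protease, stood at 568, 484 and 636 CPM against 227, 171 and 247 (1.39 ± 0.09). Receptors were represented by *Gabbr2*, a subunit of the GABA-B receptor (chr4:46662305-46991873, minus strand; 1.44 ± 0.10), *Grm3*, a metabotropic glutamate receptor (1.32 ± 0.07), and *Cnr1*, the cannabinoid receptor CB1 (1.39 ± 0.16). The chemokine gene *Cxcl14* (1.34 ± 0.08), the secreted protein gene *Emid1* (1.28 ± 0.11) and the glycosidase gene *Myorg* (1.45 ± 0.14) were higher by similar ratios. Metabolic enzymes among the 10 leading genes were *Tm7sf2*, a sterol reductase of cholesterol synthesis (1.36 ± 0.18), and *Cth*, which makes cysteine (1.31 ± 0.15). None of these 10 mean ratios reached 3-fold, and their SDs over the libraries were at most 0.176. The ratios are against the pooled cells, and the 10 genes were not among the 5 higher in the members than in sub-cluster 9. *Hapln1*, for one, stood at 97.3 and 100 CPM in sub-cluster 9 of replicates 2 and 3.

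The 10 genes furthest below the other cells, ranked by the library with the smallest ratio, included several genes of motile cilia. *Pifo*, a ciliary gene, stood at 0.0808, 0.468 and 1.24 CPM in the members and at 40.6, 63.3 and 56.4 CPM in the other cells. *Dynlrb2*, a dynein light chain, stood at 1.37, 2.69 and 2.48 against 56.2, 102 and 122 CPM. *Mlf1*, *Enkur* and *Rsph1*, a radial spoke protein, followed with log2 ratios of -4.38, -3.79 and -4.29. *Riiad1*, which is not absent from the members, was at 37.5, 68.9 and 59.3 against 233, 407 and 381 CPM (-2.6 ± 0.06). *Meig1* (-2.6), *Tagln2*, an actin-binding protein (-2.66), *Csrp2*, a LIM domain protein (-3.73), and *Pclaf*, a partner of the replication clamp (-3.64), complete the 10. Sub-cluster 15 held much of the ciliary signal, with *Pifo* at 375 ± 32.6 CPM (n = 2 libraries), and without its cells in the comparator 248 genes in place of 354 were lower in the members.

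By list, functions of the maturing astrocyte leaned towards the members. Of 31 astrocyte markers, all measured, 3 were higher and none lower: *Slc1a2* (1.2 ± 0.11), *Ptprz1*, a receptor phosphatase (1.1 ± 0.03), and *Bcan*, the matrix proteoglycan brevican (1.2 ± 0.04), with a list median of 0.64. Of these 31 markers, 24 lay above 0 and 7 below. Of 18 genes of glutamate and GABA handling, 5 were higher and none lower (median 0.85), including *Slc38a3*, a glutamine transporter, at 150.4, 165 and 169 against 74.9, 73.4 and 78.8 CPM. Of 18 measured genes of synaptogenic and matricellular factors, 5 were higher (median 0.84), including *Chrdl1*, a secreted BMP antagonist, and *Mertk*, a phagocytic receptor. The counts of these last lists moved with the setting: both were 3 with sub-cluster 0 alone, and the synaptogenic count was 8 under TMM or DESeq2 scaling. No gene passed 2-fold among 13 of end-feet, water and potassium (median 0.55) or 20 of lipid transport and fatty acids (median 0.48). Cholesterol synthesis was higher in 1 of 24 genes (median 0.54). The replication and division genes lay the other way, with 15 of 17 S phase genes (median -1.53) and 8 of 8 genes of G2 and mitosis lower. None of 14 measured telencephalic patterning genes passed 2-fold either way (median 0.07).

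Sub-cluster 2 precedes sub-cluster 0 on the lineage drawn by the study, and the members differed from it both in genes of astrocyte function and in genes of division. Against sub-cluster 2 (922 cells), 601 of 8499 genes were higher in the members (7.07%) and 357 lower (4.20%), with a median of 0.06. Of the 31 astrocyte markers, 23 were higher and none lower, with a median of 1.24. *Clu*, the lipid-carrying chaperone clusterin, stood at 609.9, 985 and 1571 CPM in the members of replicates 1, 2 and 3 and at 35.8, 117 and 121 CPM in sub-cluster 2 (3.6 ± 0.50). *Gja1*, connexin 43 of astrocyte gap junctions, stood at 557, 573 and 708 against 120.2, 159 and 178 CPM (2.01 ± 0.18). *Aqp4* stood at 571, 481 and 525 against 134, 153 and 149.6 CPM (1.84 ± 0.22). In each of these genes every library of the members was above every library of sub-cluster 2.

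Several functional lists had most of their genes higher in the members, and others did not. Among genes of glutamate and GABA handling, 12 of 18 were higher (median 1.07), with *Slc1a2* at 1908, 1648 and 2058 against 400.2, 391 and 438 CPM and *Slc7a10*, a neutral amino acid transporter, at 414, 435 and 533 against 67.2, 109 and 98.2. Of 13 measured genes of end-feet, water and potassium, 9 were higher (median 1.17), and *Atp1b2*, which encodes the sorted ACSA2 antigen, was one of them (1.41 ± 0.18). How far the sort contributed to the shares of these cells was not tested. Of 18 synaptogenic and matricellular genes, 15 were higher (median 1.22), including *Sparcl1*, the synapse-promoting protein hevin (2.62 ± 0.34), and *Gpc5*, a glypican (2.67 ± 0.50). Lipid transport and fatty acid genes were higher in 9 of 20, with *Apoe*, the main lipoprotein of astrocytes, at 19551, 15672 and 15799 against 3348, 4076 and 3456 CPM (2.23 ± 0.30). Cholesterol synthesis was higher in 2 of 24 genes (median 0.47) and glycolysis and glycogen in 3 of 22 (median 0.07), with none lower in either.

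Members were lower than sub-cluster 2 in genes of growth and division. Of 18 S phase genes, 17 were lower (median -2.18), as were all 9 measured genes of G2 and mitosis, 55 of 81 cytosolic ribosomal protein genes (median -1.06) and 4 of 13 genes of G1 cyclins and Cdk inhibitors. Summed, the ribosomal protein genes took 87758, 101352 and 75602 CPM in the members and 191105, 204496 and 168743 CPM in sub-cluster 2. The list of neural stem and radial glia genes leaned the other way, with 6 of 17 measured genes higher and 2 lower (median 0.58). Among the higher were *Notch2*, a Notch receptor (1.8 ± 0.16), and *Tnc*, the matrix protein tenascin C (1.24 ± 0.12), and among the lower was *Nes*. *Nes*, the intermediate filament nestin, stood at 108, 61.5 and 67.6 against 281, 180.1 and 263 CPM (-1.61 ± 0.30). *Olig1* and *Olig2*, factors of glial progenitors, had ratios of -1.18 ± 0.13 and -1.56 ± 0.24. Of 15 immediate early genes 4 were lower too, *Egr1*, *Atf3*, *Ier2* and *Zfp36* (median -0.69).

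Ranked by the library with the smallest ratio, the gene furthest above sub-cluster 2 was *Crym*, which encodes a cytosolic thyroid hormone binding protein (chr7:120186380-120202111, minus strand). It stood at 334, 517 and 547 CPM in the members and at 5.44, 35.4 and 22.9 in sub-cluster 2 (4.68 ± 0.94), and within the members its level was higher in sub-cluster 0 than in sub-cluster 1 in each library. *Entpd2*, an ectonucleotidase, stood at 111, 112 and 124 against 3.18, 12.6 and 6.22 CPM. *Gfap*, the astrocyte filament protein, stood at 48.99, 75.1 and 147 against 1.81, 9.64 and 10.5 CPM, and *Ephx2*, an epoxide hydrolase, at 43.9, 51.2 and 59.3 against 4.54, 7.01 and 2.95. In P3 replicate 1 the values of *Entpd2*, *Gfap* and *Ephx2* in sub-cluster 2 rest on 7, 4 and 10 UMIs, so no ratio is given for them. On the lower side *Nrgn*, the neuronal protein neurogranin, stood at 2.34, 2.46 and 3.19 against 55.8, 64.5 and 71.1 CPM and *Rrm2*, a subunit of ribonucleotide reductase, at 6.95, 6.198 and 6.74 against 70.3, 58.9 and 107. *Pclaf* (-4.52 ± 0.29), *Cenpm*, a centromere protein (-3.43 ± 0.59), and *Tagln2* (-3.03 ± 0.15) were lower as well.

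**Figure D3:**
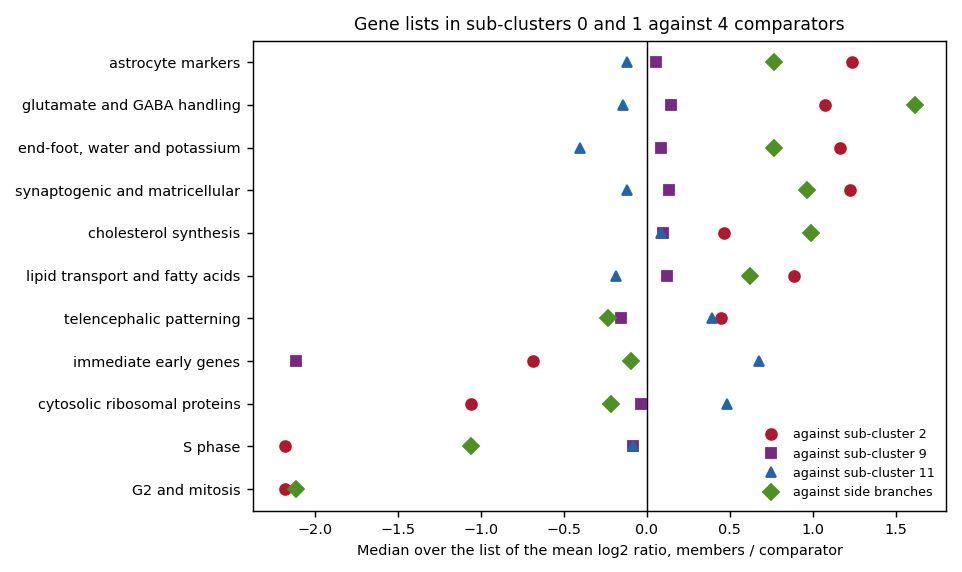
Median over each gene list (rows) of the mean log2 ratio of the members over a comparator (horizontal axis), with one symbol per comparator, for lists with at least 5 measured genes. The astrocyte lists lie right of 0 against sub-cluster 2 and the side branches and near 0 against sub-clusters 9 and 11, and immediate early genes lie at -2.11 against sub-cluster 9.

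Sub-cluster 9 differed from the members in few genes, among them nearly all of the immediate early genes, which cells switch on within minutes of a stimulus. It could be compared in P3 replicates 2 and 3 only, since replicate 1 held 9 of its cells, and there 5 of 8202 genes were higher in the members (0.0610%) and 36 lower (0.439%). Of 15 immediate early genes, 14 were lower in the members, with a median of -2.11 against 0.01 over all genes. *Fos* stood at 1014 and 989 CPM in the members of replicates 2 and 3 and at 3694 and 5057 CPM in sub-cluster 9. *Socs3*, a feedback inhibitor of cytokine signalling, stood at 144 and 122 against 637 and 754 CPM, and *Cebpd*, an inflammatory transcription factor, at 90.4 and 84.8 against 450.0 and 452. *Atf3* (-3.76 ± 0.77, n = 2), *Klf2* (-2.22 ± 0.15) and *Gadd45g*, a stress gene (-2.09 ± 0.10), were lower too. On the higher side *Crym* stood at 517 and 547 against 161 and 173 CPM (1.67 ± 0.01), and the other genes counted there, *Aak1*, *Galnt10*, *Gas6* and *Gm26917*, named after their values were seen, had ratios of 1.07, 1.23, 1.04 and 1.00. In other lists few genes passed 2-fold. Of 9 measured genes of heat shock and stress 2 were lower, *Gadd45g* and *Gadd45b* (-1.4 ± 0.55), and *Hes1*, a Notch target, was the 1 of 12 Notch genes lower (-1.36 ± 0.31). None of 13 BMP and Id genes passed 2-fold, but they summed to 2398 to 2499 CPM in the members and 3441 to 4004 in sub-cluster 9. *Gfap* was the 1 of 31 astrocyte markers past 2-fold (-1.27 ± 0.02), and none of 18 genes of glutamate and GABA handling, 14 telencephalic patterning genes or 24 cholesterol synthesis genes was.

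Sub-cluster 11 differed from the members in part of the astrocyte genes and in several patterning genes. Against its 307 cells 156 of 8528 genes were higher in the members (1.83%) and 180 lower (2.11%). *Agt*, angiotensinogen, stood at 48.4, 64.3 and 50.1 CPM in the members of replicates 1, 2 and 3 and at 1105, 884 and 798 CPM in sub-cluster 11 (-4.07 ± 0.37). Of 31 astrocyte markers, 6 were lower in the members and none higher: *Sparcl1*, *Ntsr2*, *Gfap*, *S100b*, *Aqp4* and *Clu*, with ratios from -1.67 for *S100b* to -1.38 for *Sparcl1*. Short of 2-fold, *Slc1a2* was higher in the members in each library, at 1908, 1648 and 2058 against 1354, 992 and 1133 CPM. *Fabp7* was higher too, at 24846, 31090.4 and 25424 against 14989, 21116 and 16648 CPM. *Hopx*, a homeodomain protein of adult astrocytes and stem cells, stood at 4.28, 8.89 and 7.1 against 101, 91.4 and 106 CPM, and the cytokine gene *Il33* at 5.34, 7.601 and 14.02 against 42.8, 66.3 and 124. *Kank1* (-2.35 ± 0.16), *Igsf1* (-2.41 ± 0.21) and the GABA transporter gene *Slc6a11* (-1.54 ± 0.09) were lower as well.

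Regional factors differed between the members and sub-cluster 11. *Lhx2* stood at 106, 111 and 133 CPM in the members and at 20.6, 24.1 and 20.9 CPM in sub-cluster 11 (2.36 ± 0.23). *Emx2* stood at 64.2, 65.02 and 76.5 against 15.9, 16.1 and 12.5 CPM (2.14 ± 0.33). *Dlx2* (1.85 ± 0.20) and *Meis2* (1.15 ± 0.05) were also higher in the members, whereas *Nr2f2* was at 37.7, 52.2 and 52.7 against 163, 191 and 170.0 CPM, lower in each library. *Foxb1*, a factor of the diencephalon, had 0.162, 1.17 and 0.887 CPM in the members and 11.1, 11.1 and 16.7 in sub-cluster 11. Among the leading genes higher in the members were *Crym* (334, 517 and 547 against 9.51, 23.1 and 16.7 CPM) and *Dio2*, the deiodinase that makes active thyroid hormone (62.98, 44.4 and 45.6 against 7.93, 4.02 and 2.79). *St6galnac5*, a sialyltransferase, had a ratio of 2.65 ± 0.50, and *Sp5*, a target of Wnt signalling, stood at 49.6, 51.1 and 67.3 CPM against 1.59, 4.02 and 0, which rests on 5 UMIs there in all. In the same direction lay the Wnt receptor gene *Fzd10* (2.82 ± 1.02) and the Wnt mediator *Lef1* (2.35 ± 0.47), with 6 of 20 Wnt pathway genes higher and 1 lower, and *Nes* (108, 61.5 and 67.6 against 11.1, 10.05 and 15.3 CPM).

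Against the side branches, sub-clusters 3, 4, 5, 10, 12 and 15 with 3006 cells, the members had more of glutamate handling, of oligodendrocyte lineage factors and of FGF feedback genes, and less of ciliary genes. Here 452 of 9011 genes were higher (5.02%) and 852 lower (9.46%). The median of all genes was -0.10, and it moved to 0.08 under TMM scaling, where 601 genes were higher and 693 lower. Sub-clusters 4 and 12 came almost wholly from P3 replicate 3 and were shallow, with medians of 1040 and 952 UMIs per cell there.

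Of 18 genes of glutamate and GABA handling 11 were higher and 1 lower, with a median of 1.62. *Grm5*, the metabotropic glutamate receptor of young astrocytes, stood at 239.5, 184 and 189.6 CPM in the members of replicates 1, 2 and 3 and at 9.197, 5.37 and 24.7 CPM in the side branches (4.1 ± 1.06). *Grm3* (2.9 ± 0.26), the AMPA receptor subunit gene *Gria2* (2.27 ± 0.38), the glycine transporter gene *Slc6a9* (2.18 ± 0.08) and the GABA transporter gene *Slc6a11* (1.78 ± 0.25) were higher, and the GABA-A subunit gene *Gabrb1* was lower (-1.39 ± 0.29). *Slc1a2* did not pass 2-fold in this comparison, at 1908, 1648 and 2058 against 1290.1, 702 and 935 CPM. *Gabbr2* stood at 149, 125 and 160.3 against 5.85, 14.8 and 14.3 CPM and *S100b*, a calcium-binding protein, at 69.7, 132 and 118 against 8.36, 7.64 and 14.4. *Agt* stood at 48.4, 64.3 and 50.1 CPM against 1.67, 5.205 and 4.72, so it was low here and high in sub-cluster 11, with the members between them.

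Several transcription factors differed between the members and the pooled side branches. *Olig1* stood at 353, 357 and 374 CPM in the members and at 16.7, 34.97 and 111 CPM in the side branches (3.12 ± 1.30). Not all side branches were low: in P3 replicate 3, the shallow sub-clusters 4 and 12 (719 and 273 of the 1949 side-branch cells there) had *Olig1* at 470.2 and 382 CPM, above the members of that library, and *Grm5* at 115 and 102 CPM. *Olig2* (2.52 ± 1.40) and *Nkx2-2* (2.52 ± 0.46), which with *Olig1* direct the oligodendrocyte lineage, were higher as well, 3 of 5 measured genes of that list, while the markers of oligodendrocyte precursors stayed at 5.96 to 9.05 CPM in sum. *Dbx2*, a homeobox factor, stood at 117, 136 and 132 against 8.36, 7.81 and 17.4 CPM (3.49 ± 0.57). *Fezf2*, a telencephalic factor, went the other way, at 1.62, 0.936 and 1.06 against 30.9, 10.2 and 19.6 CPM, and so did *Nkx6-2* at 2.67, 3.74 and 7.63 against 48.5, 76.1 and 84.5 CPM. Of 16 telencephalic patterning genes 2 were higher, *Meis1* among them, and 2 lower (*Gsx2*, *Fezf2*), with a median of -0.23, so this list as a whole did not favour the members.

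Signalling genes also differed. Among 14 genes of FGF signalling and its feedback, 6 were higher and none lower (median 0.64), including *Fgfr3* (1.97 ± 0.34), the Erk-induced factor *Etv4* (2.92 ± 1.02) and the inhibitors *Spry1* (2.14 ± 0.91) and *Lrig1* (2.68 ± 0.43). *Egfr*, a receptor of glial progenitors, stood at 143, 119 and 154 against 14.2, 13.8 and 42.1 CPM (2.71 ± 0.75), with 134 and 102 CPM in sub-clusters 4 and 12 of replicate 3. Of 14 BMP and Id genes 6 were higher and 2 lower, with *Id3* at 1170.1, 1377 and 1271 against 304, 295 and 349 CPM and *Id4*, of the same family of helix-loop-helix inhibitors, at 145, 98.1 and 98.7 against 523, 397 and 284. In the Wnt pathway *Lgr6* (2.8 ± 0.68), *Lef1* (2.48 ± 0.71) and *Fzd10* (2.19 ± 0.61) were higher, and the secreted inhibitor *Sfrp1* was at 118, 83.4 and 99.4 against 600.3, 485 and 518 CPM (-2.41 ± 0.10). In Notch signalling 4 of 14 genes were higher and 3 lower, among the latter the ligand genes *Jag1* (-2.23 ± 0.54) and *Dlk1* (-3.44 ± 0.58). Cholesterol synthesis was higher in 12 of 24 genes and lower in none (median 0.99), with *Dhcr7* at 101, 77.8 and 60.3 against 30.1, 15.1 and 18.8 CPM. Among the lowest genes in the members were the ciliary genes *Dynlrb2* (-6.1 ± 0.19), *Rsph1* (-5.51 ± 0.42) and *Tekt1* (-5.01 ± 0.07). *Pifo* was lower too, but its values in the members rest on 1, 4 and 7 UMIs, so no ratio is given. *Deup1*, of the centriole factories of multiciliated cells, had 0, 0 and 0.355 CPM in the members and 75.2, 37.1 and 57.8 in the side branches.

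Within the members, sub-cluster 1 had higher immediate early genes and lower *Crym* than sub-cluster 0, among other differences. In the 3 libraries, with 1156, 29 and 26 cells of sub-cluster 1 against 115, 976 and 739 of sub-cluster 0, 356 of 8800 genes were higher in sub-cluster 1 (4.05%) and 191 lower (2.17%). This balance depended on the scaling, with 182 higher and 298 lower under TMM, where the median of all genes moved from 0.07 to -0.10. It also depended on the libraries, with 945 and 520 genes without P3 replicate 1 and 308 and 140 without P3 replicate 3, so the counts say little of single genes. Of 15 immediate early genes, 13 were higher in sub-cluster 1 and none lower, with a median of 1.92.

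*Egr1* stood at 467, 1019 and 1518 CPM in sub-cluster 1 of replicates 1, 2 and 3 and at 118, 199 and 160.4 CPM in sub-cluster 0 (2.52 ± 0.65). Summed over the 15 genes, sub-cluster 1 had 5328, 9289 and 13303 CPM and sub-cluster 0 had 2393, 2863 and 2521 CPM, without overlap. The sum for sub-cluster 1 in replicates 2 and 3 lay beside that of sub-cluster 9, at 10171 and 12119 CPM in the same libraries, whereas in replicate 1, which gave most of sub-cluster 1, it lay beside sub-cluster 2, at 5157, 4831 and 6299 CPM in replicates 1, 2 and 3. The endothelial cluster, which is not astroglial, had 3556, 4208 and 5039 CPM, and the pericyte cluster 3613, 2798 and 4292 CPM. *Fosb* (2.49 ± 1.03), *Zfp36*, a messenger RNA decay factor (1.92 ± 0.79), and *Btg2*, an inhibitor of proliferation (1.96 ± 0.54), were also among the leading genes. *Kcnq1ot1*, a long imprinted antisense RNA (chr7:143203458-143296549, minus strand), stood at 63.9, 89.7 and 121 against 21.3, 19.5 and 19.96 CPM.

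*Crym* was the gene with the widest gap the other way. It stood at 195, 23.6 and 24.2 CPM in sub-cluster 1 and at 2342, 529.6 and 559 CPM in sub-cluster 0. The values of sub-cluster 1 in replicates 2 and 3 rest on 5 and 3 UMIs, so no ratio is given. Within sub-cluster 0 *Crym* was over 4 times higher in P3 replicate 1 than in the other libraries. After thinning, *Crym* was detected in 58, 26.5 and 31.9% of the cells of sub-cluster 0. In sub-cluster 1 the shares were 17.6, 6.897 and 8%, on 29 and 25 cells in replicates 2 and 3. Sub-cluster 2 gave 1.94, 2.61 and 1.74% and the endothelial cluster 0.578, 0 and 1.54%. *Crym* was not particular to the members, since sub-cluster 3, a side branch, had a higher level than sub-cluster 0 in each library. Other genes lower in sub-cluster 1 were *Clu* (-1.08 ± 0.57) and *Riiad1*, at 34.8, 28.3 and 24.2 against 76.4, 69.9 and 60.1 CPM. *Lmo1*, a LIM domain protein, *Sp5* and *S100b* were lower in each library as well. In sub-cluster 1 of replicates 2 and 3 they rest on 3 and 1, 4 and 5, and 17 and 5 UMIs, so no ratio is given for them. Other transcripts moved with these genes. The nuclear RNA *Malat1* stood at 59469, 67729.9 and 134683 CPM in sub-cluster 1 and 48459, 39061 and 59542 in sub-cluster 0, and *Gapdh* at 1577, 1468 and 1179 and 2109, 2792 and 2786 CPM. Of 9 measured genes of heat shock and stress 3 were higher in sub-cluster 1 and none lower (*Dnajb1*, *Atf4* and *Gadd45b*, median 0.63), and of 22 of glycolysis and glycogen 18 lay below 0 and 1 passed 2-fold (median -0.51). Their part in the difference was not tested. None of 18 genes of glutamate and GABA handling, 13 of end-feet and 18 synaptogenic genes passed 2-fold between the sub-clusters. The astrocyte markers *S100b* and *Clu*, named above, did.

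**Figure D4:**
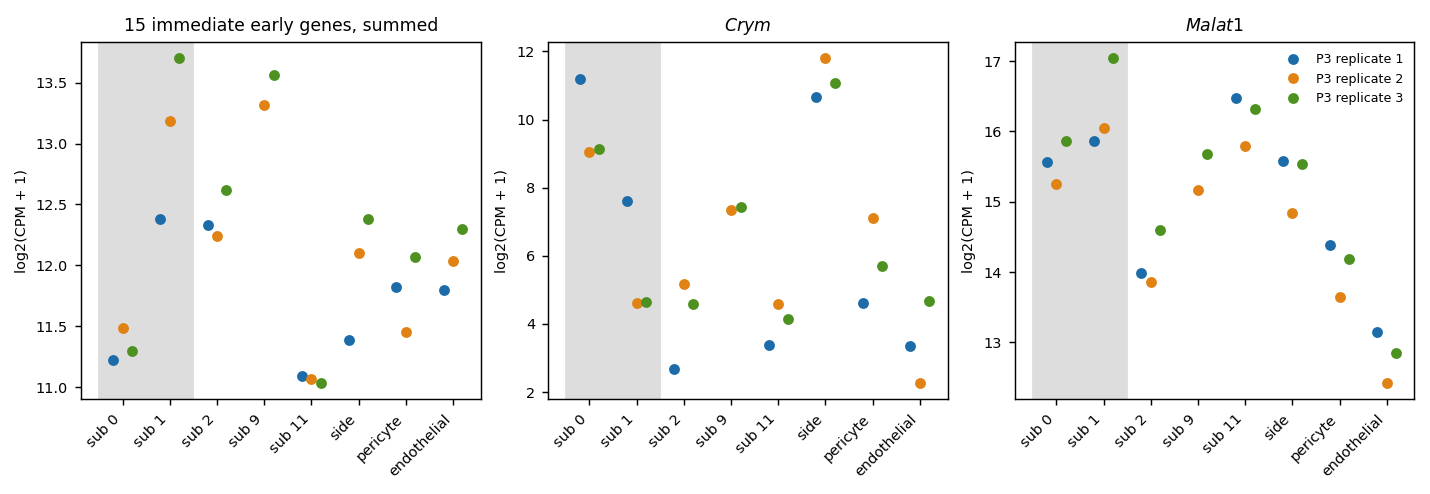
log2(CPM + 1) of 15 immediate early genes summed, of *Crym* and of *Malat1* (vertical axes, which do not start at 0) in sub-clusters (sub), pooled side branches (side), pericytes and endothelial cells of each P3 library (one point per library), with the members on grey. Sub-cluster 1 lies above sub-cluster 0 for the immediate early genes and *Malat1* and below it for *Crym* in each library, and sub-cluster 9 lies near sub-cluster 1 in replicates 2 and 3 for the immediate early genes.

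Genes of the cell cycle set the members apart from the cycling sub-clusters 6 and 8 (1177 cells). Against these cells 838 of 8764 genes were higher (9.56%) and 810 lower (9.24%) in the members, a balance that moved to 617 and 1008 with DESeq2 size factors. All 18 S phase genes (median -3.07) and all 18 genes of G2 and mitosis (median -6.66) were lower. *Top2a*, a topoisomerase of dividing cells, stood at 5.497, 3.86 and 2.66 CPM in the members of replicates 1, 2 and 3 and at 810.3, 582 and 712 CPM in the cycling cells. *Ube2c*, of the mitotic ubiquitin machinery, stood at 3.07, 3.98 and 2.13 against 788, 904 and 792 CPM and *Pclaf* at 2.75, 3.27 and 4.61 against 539, 638 and 719. *Nusap1* and *Plk1*, a mitotic kinase, were at 2.102, 1.99 and 1.24 and 0.162, 0.117 and 0.355 CPM in the members, the latter on 5 UMIs in all.

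Astrocyte genes were higher in the members here too. Of 31 markers 23 (median 1.42) and of 18 genes of glutamate and GABA handling 15 (median 1.3) were higher and none lower. *Fgfbp3*, which releases FGF from the matrix, stood at 1078, 802 and 895 against 149.8, 166 and 135 CPM (2.61 ± 0.30), *Cldn10*, a claudin, at 557, 686 and 627 against 109.5, 129 and 100.4 (2.46 ± 0.16) and *Abhd3*, a phospholipase, at 215, 196 and 247 against 42.96, 32.1 and 39.7 (2.49 ± 0.17). *Entpd2* (3.02 ± 0.44) and *Gfap* completed the leading genes. *Gfap* stood at 48.99, 75.1 and 147 CPM in the members and at 1.198, 13.3 and 17.6 CPM in the cycling cells. In P3 replicate 1 it had 3 UMIs in sub-cluster 6 and 4 in sub-cluster 8, so no ratio is given. Of 81 ribosomal protein genes 42 were lower in the members. Inhibitors of the cell cycle were not higher with one exception: *Cdkn1a* (-1.17), *Cdkn2c* (-2.72) and *Cdkn2d* (-1.68) were lower in the members, and the antiproliferative gene *Btg1* was higher (1.08 ± 0.08).

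Across ages the members were set against the main adult astrocytes, sub-clusters 7 and 14 at 3m (788 cells), which end the same lineage. Here a gene is counted where the means differ by over 2-fold on the log2(CPM + 1) scale and the libraries of the ages do not overlap. Of 8828 genes, 1438 were higher at P3 (16.3%) and 855 lower (9.69%), with a median of 0.27, and with DESeq2 size factors the counts were 1066 and 1052. The adult cells were shallower, at medians of 5455, 3234 and 3831 UMIs, and had more mitochondrial UMIs (8.39, 5.61 and 5.86% by library). Other cell types moved with age: oligodendrocyte markers summed to 5.25 to 7.63 CPM in the members and to 199.8 to 346 CPM in the adult cells, with 3 of 5 lower in the members (*Mbp* and *Mobp* among them). Microglia markers summed to 7.25 to 10.4 CPM in the adult cells. Their part in the differences was not tested.

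Genes of immaturity were high in the members. *Fabp7* stood at 24846, 31090.4 and 25424 CPM in P3 replicates 1, 2 and 3 and at 241, 198 and 163 CPM at 3m (7.08 on the log2 scale). *Olig1* stood at 353, 357 and 374 against 28.3, 30.04 and 24.2 CPM, and *Tnc*, the matrix protein tenascin C, at 206, 178 and 213 against 11.9, 9.32 and 6.44. The ages were far apart in each. Of 10 genes that the study named as immature, 7 were higher and none lower (median 1.5), a list that was chosen on these samples and is no independent evidence of its direction. Of 11 measured G1 cyclins and Cdk inhibitors 6 were higher, with *Ccnd1*, cyclin D1, at 143, 113 and 106 against 1.82, 2.07 and 1.61 CPM. Wnt genes included *Wnt5a* (4.19), *Sfrp1* (3.64) and *Sfrp2* (4.27) on the higher side and *Lgr4* (-3.31) and *Rspo3* (-2.69) on the lower. Cholesterol synthesis was higher in 10 of 24 genes (median 0.91), with *Hmgcs1* at 987, 959 and 962 against 172, 232 and 252 CPM, and 59 of 81 ribosomal protein genes were higher (median 1.19), or 31 when all 3m astroglial cells were the comparator.

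Immediate early genes were among the widest gaps, with 14 of 14 measured genes higher in the members and a median of 4.65. *Fos* stood at 1940.0, 1014 and 989 CPM in the members and at 4.56, 3.11 and 8.05 CPM in the adult cells. *Egr1* stood at 444, 219.7 and 190.3 against 0, 0 and 1.61 CPM, *Socs3* at 163, 144 and 122 against 0, 1.04 and 0 and *Grm5* at 239.5, 184 and 189.6 against 2.74, 0 and 3.22, and since the adult sums of these genes rest on 2, 1 and 7 UMIs in all, no ratio is given. In sub-cluster 0 alone the 15 genes summed to 2393, 2863 and 2521 CPM. *Fos* stood there at 796, 954 and 887 CPM, above every adult library.

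Genes of the adult astrocyte were lower in the members, some near absence and some within a few fold. *Gjb6*, connexin 30, stood at 3.15, 1.52 and 2.31 CPM at P3 and at 380.5, 294 and 333 CPM at 3m (-6.68). *Grin2c*, an NMDA receptor subunit, stood at 2.59, 2.105 and 1.42 against 255, 194 and 184 CPM, and *Kirrel2*, an adhesion protein, at 0.404, 0.234 and 0 against 74.8, 55.9 and 63.6. *Rpe65*, a retinoid isomerase, had no UMI in the members against 91.2, 79.7 and 61.2 CPM, and 3 UMIs per library would be 0.243, 0.351 and 0.532 CPM. *Ppp1r1b*, abundant in striatal projection neurons, stood at 0.243, 0.585 and 0.177 against 90.3, 101 and 96.6 CPM. Of 9 genes that the study named as mature, again on these samples, 6 were lower (median -1.56), whereas *Aqp4* and *Slc1a3* were at 571, 481 and 525 against 727, 497 and 541 and at 2676, 2708 and 3143 against 2546, 2867 and 2746 CPM and did not pass the rule. *Slc1a2* stood at 1908, 1648 and 2058 against 4643, 4993 and 4767 CPM (-1.36), *Aldoc*, a glycolytic aldolase, at 1173, 1298 and 1243 against 5349, 4925 and 5039.8 (-2.04), and *Glul*, glutamine synthetase, at 761, 782 and 1087 against 2657, 2783 and 2908 (-1.68). The transcription factors *Fezf2* (-3.77), *Rorb* (-1.59) and *Lhx2* (-1.07) were lower in the members, 3 of 6 that the study tied to maturation. *Hopx* stood at 4.28, 8.89 and 7.1 against 146, 184 and 184 CPM. Of 16 genes of end-feet, water and potassium 7 were lower and none higher, and of 24 of glycolysis and glycogen 7 were lower and 2 higher, with *Pygm*, glycogen phosphorylase, at 1.05, 1.17 and 1.42 against 57.5, 19.7 and 25.8 CPM and *Hk2*, a hexokinase, at 25.1, 30.1 and 27.3 against 5.47, 0 and 6.44.

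**Figure D5:**
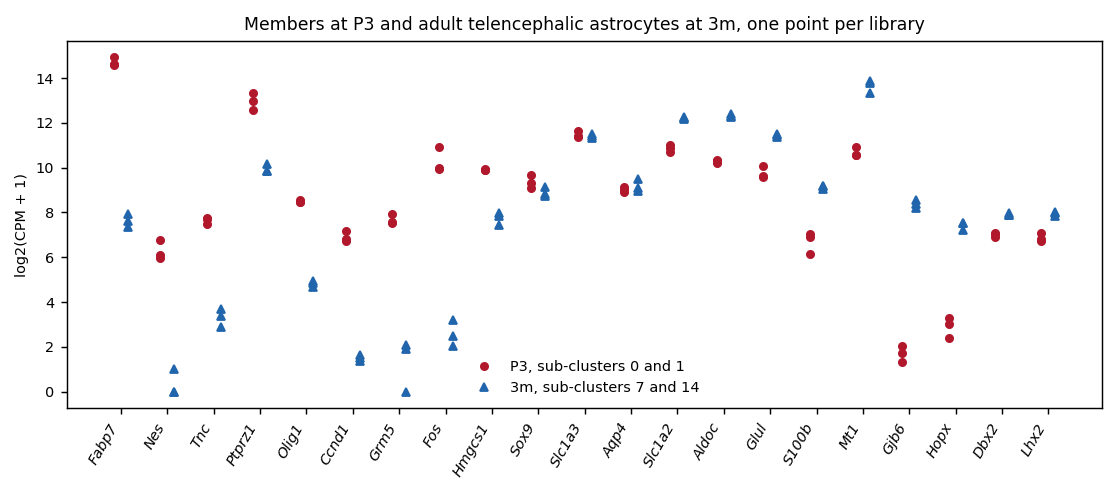
log2(CPM + 1) of 21 genes (vertical axis) in the members of the 3 P3 libraries (circles) and in sub-clusters 7 and 14 of the 3 libraries at 3m (triangles), one point per library. Genes on the left, from *Fabp7* to *Hmgcs1*, are higher at P3, *Sox9*, *Slc1a3* and *Aqp4* are close at both ages, and the genes from *Slc1a2* on are lower at P3, with *Gjb6* and *Hopx* lowest.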

How the data were processed

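The deposited count table held UMI counts of 32285 genes in 16690 barcodes, which the authors made with Cell Ranger on mm10 and deposited without normalization. The deposited cell table gave the authors' clusters, sub-cluster numbers and Slingshot pseudotime score for the 14373 cells they kept (over 500 genes, under 10% mitochondrial UMIs), clustered with Seurat (3.1.1 in the submitters' processing notes). Doublets were not removed.

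From the counts, UMIs were summed per library and set of cells, scaled to CPM, and compared as log2 ratios within library with a pseudocount of 1 CPM. The members held 12369859, 8551363 and 5634089 UMIs in P3 replicates 1, 2 and 3. A library was used where both sums held at least 20 cells, and a gene was measured at a mean of at least 10 CPM in either sum. It counted as higher or lower at a mean of 2-fold with the same sign in each library used. Between ages the libraries had also not to overlap. No test was run, because the sub-clusters were drawn from the same counts.

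The text names genes of the lists and, by the smallest-library ratio, the leading 10 each way for the first comparison and 5 for the others, at 50 CPM or more in the higher sum, leaving out predicted, unnamed, mitochondrial and ribosomal protein genes, and a few genes are not reported here. The members and lists were chosen with earlier results of these data known. For shares of cells each cell was thinned to 2000 UMIs, which left out shallower cells. Intervals and limits cover counting error only. The steps were run on simulated counts in which library effects were shared by both sides of a ratio. Variation of the ratios between libraries, beyond counting error, was not simulated. Alternative scalings came from edgeR 4.0.16 and DESeq2 1.42.0 in R 4.3.3, the rest from Python 3.11.15 with numpy 2.4.6, scipy 1.17.1 and pandas 2.3.3. Coordinates are from GENCODE on GRCm38, the same build as mm10.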

Additional observations from a re-analysis of the deposited data

How the results depend on the processing

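Of 172 recomputed counts and shares, 137 stayed within 1.5 times the reported count (or 1 SD of the reported share) and 35 did not. Of 858 recomputed log2 ratios of named genes none changed sign, but 153 moved by more than 1 SD, among them 46 of 86 at a pseudocount of 5 CPM and 15 of 20 with the comparator's sub-clusters weighted equally. Raising the pseudocount to 5 CPM gave 42 genes higher in the members than in the other non-cycling cells, 393 than in sub-cluster 2, 1 than in sub-cluster 9 and 539 than in the cycling cells, 103 higher and 115 lower against sub-cluster 11, and 131 higher and 72 lower in sub-cluster 1 than in sub-cluster 0. Without a filter on low levels 860 genes were lower against the other non-cycling cells, 602 against sub-cluster 2, 1546 against the side branches and 687 in sub-cluster 1 than in sub-cluster 0, with 106 higher and 80 lower against sub-cluster 9, 413 and 324 against sub-cluster 11, and 2169 and 1368 against the adult cells, since more genes were counted. Thinning each cell to 2000 UMIs gave 117 genes higher against the other non-cycling cells, 199 higher and 138 lower against sub-cluster 9, 382 and 276 against sub-cluster 11, 635 and 605 in sub-cluster 1 than in sub-cluster 0, and 0.126% of members with cycling genes in place of 0.831%. Sub-cluster 1 against 0 gave 182 higher and 298 lower with TMM factors and 192 and 300 with DESeq2 size factors, and the cause was not tested. Leaving out a replicate moved it to between 308 and 945 higher and between 140 and 520 lower, and moved the genes higher against sub-cluster 9 to between 13 and 35, each from a single library. The use of sub-cluster 0 alone in comparisons other than the first was chosen after seeing the data. No paired analysis was possible because no test was run. Ratios between P3 sub-clusters were already taken within library, and the ages share replicate numbers only as names. Depth limits the ratios that involve sub-cluster 1 in P3 replicates 2 and 3 (29 and 26 cells, 211871 and 123809 UMIs) and genes near 0 in the adult cells.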
